A study of Homo sapiens with 8 samples.

Results

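Proteoglycans are core proteins that carry long sulfated sugar chains, the glycosaminoglycans chondroitin, dermatan and heparan sulfate, and hyaluronan is a glycosaminoglycan made without a core protein. The set described here holds core proteins, hyaluronan synthases, receptors and hydrolases, and the enzymes that build and sulfate the chains. Of 48 listed genes, 45 were named by a probe set of the platform annotation and are described, out of 19775 genes in all; HAS1, HYAL1 and NDST2 were not analysed here. Where several probe sets named a gene, the one with the highest mean signal over the 8 arrays stood for it.

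Chain synthesis begins in the Golgi with xylosyltransferases that put xylose on a serine of the core protein, and further transferases complete a short linker. Chondroitin synthases or the exostosins then extend the chain, and sulfotransferases decide where it carries sulfate, which sets what growth factors, chemokines and matrix proteins it can bind. Hyaluronan is instead extruded through the plasma membrane by hyaluronan synthases and is bound by CD44. In breast cancer cells with mesenchymal features this system makes up much of the pericellular coat, and TGFβ is known from other cells as a regulator of several of its genes.

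The cells were MDA-MB-231, a metastatic human breast cancer line that expresses mutant p53, infected with a retrovirus carrying a short-hairpin RNA against GFP, kept 24 h without serum and then given TGFβ in serum-free medium for 3 h (4 arrays, replicate letters A to D). They were compared with cells of the same line, hairpin and serum withdrawal that were left untreated (4 arrays, letters A to D). The labelled dose is 5 µg/ml, a unit that is uncertain because TGFβ is commonly used at far lower concentrations. The series addresses genes controlled jointly by TGFβ and mutant p53; cells depleted of p53 were not analysed here, so no statement on p53 is made.

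Values are log2 signals that the authors made with RMA, and a difference of 1 on this scale is 2-fold. Array medians were 4.62 to 4.66. The labels call the arrays biological replicates without saying whether cultures were separate, so a p-value covers the spread among these arrays, which may be technical, and their number limits the precision. SMAD7, the inhibitory SMAD that TGFβ induces, had signals of 7.28, 7.99, 7.97 and 7.90 in TGFβ arrays A to D, against 5.51, 6.50, 6.01 and 5.88 in untreated arrays. It rose 3.5-fold (adjusted p = 0.0039, limma), with no overlap between groups. VIM, AXL, CAV1 and MSN, markers of a mesenchymal-like breast line, were all above the lowest 40% of gene signals. Among ESR1, PGR, GATA3, CDH1 and EPCAM, markers the line should lack or hold at a low level, only PGR and CDH1 lay in the lowest 40%. Of 6 markers of blood, endothelium or other epithelia 5 lay there, the exception being PECAM1, and RMA gives no detection call. On TGFβ array A the 3-prime probe set of ACTB exceeded the 5-prime probe set by 1.68 (log2), against 0.63 to 0.78 on the other TGFβ arrays and 0.67 to 0.89 on untreated arrays; its GAPDH excess was 0.54, against 0.06 to 0.14 on all others. Such an excess is a sign of shorter RNA or cDNA. Member calls that change without this array or without letter A are given with and without it. For further genes the blocked fit without letter A is given as a count only.

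After TGFβ, CHST3, a sulfotransferase that puts sulfate on chondroitin, was the only member that passed the test (limma with Benjamini-Hochberg adjustment over all genes, threshold 0.05), and it rose 1.85-fold. The other 44 members did not pass. That is 1 of 45 members, or 2.22%, against 114 of all 19775 genes, or 0.576% (0.354% higher and 0.223% lower), and a count of 1 is too small to set the members apart. Same-letter arrays deviated together. In a fit that takes the letter as a block, 5 members passed, CHST3 upward and HAS2, XYLT2, EXTL2 and HS3ST1 downward, or 11.1% of the members, against 705 of all genes, or 3.57% (1.39% higher and 2.18% lower). HAS2, the main hyaluronan synthase of many mesenchymal cells, had the largest difference of all members, with a signal 2.33-fold lower in TGFβ arrays. The median log2 fold change of the 45 members was 0.03, beside 0.01 over all genes, with 26 members above 0 and 19 below. In 7 members the groups did not overlap, 6 of them higher and 1 lower with TGFβ, which is 15.6%, against 5.12% of all genes (2.9% higher and 2.21% lower). Before adjustment 10 members had p under 0.05, or 22.2%, against 8.14% of all genes. The members were chosen with earlier results of these data known, so these shares cannot set the members apart from all genes.

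**Figure D1:**
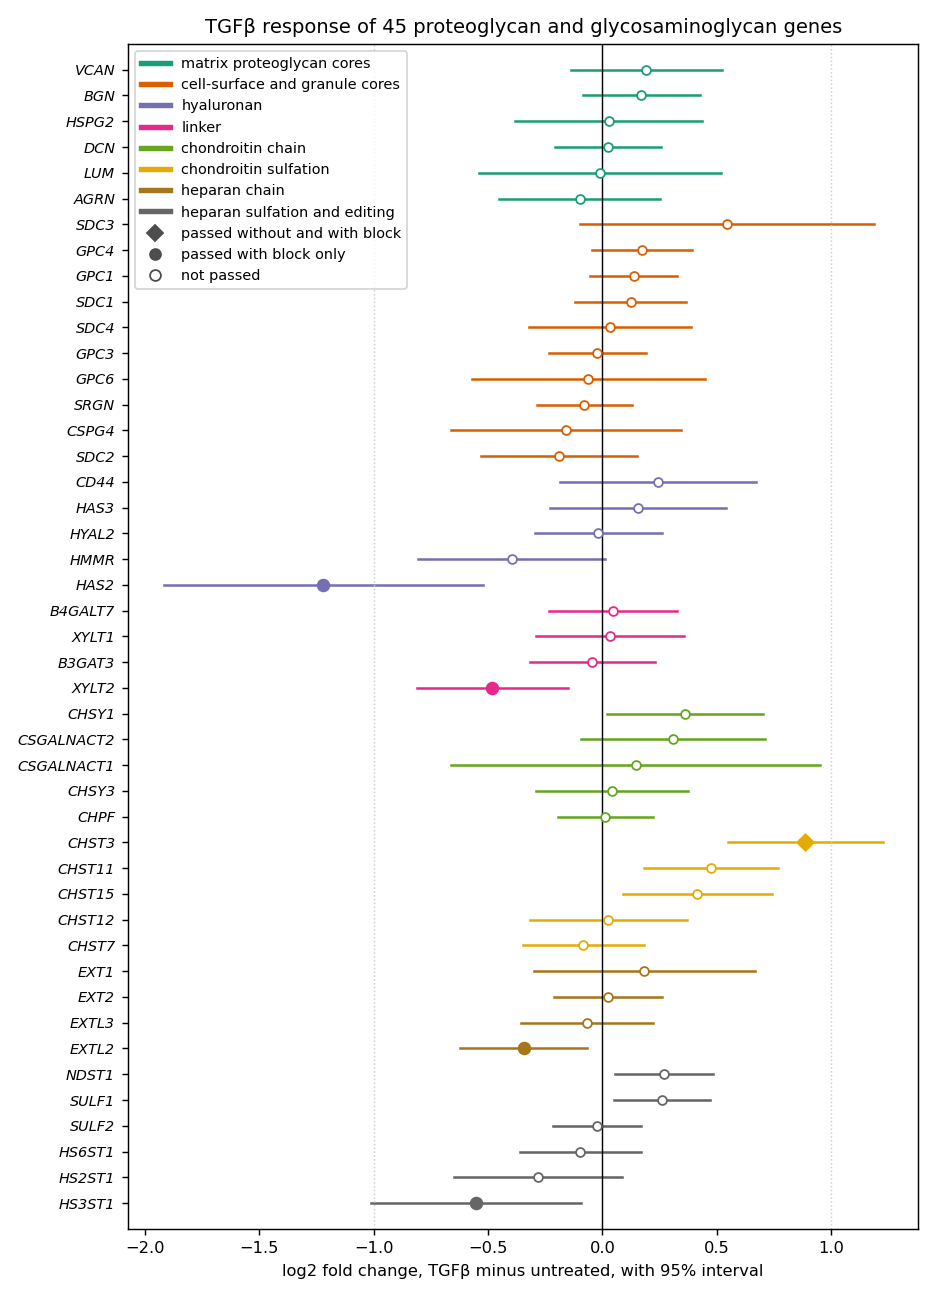
Log2 fold change (TGFβ minus untreated, x axis) of the 45 measured genes with 95% intervals from limma, coloured by role. The filled diamond marks CHST3, which passed without and with the letter as a block; filled circles mark HAS2, XYLT2, EXTL2 and HS3ST1, which passed with the block only; most intervals cross 0.

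Among the enzymes that sulfate chondroitin, CHST3 rose, and CHST11 and CHST15 had higher signals in every same-letter pair. CHST3 (Entrez Gene 9469), which transfers sulfate to the carbon-6 position of N-acetylgalactosamine, had signals of 7.85, 8.45, 8.27 and 8.09 in TGFβ arrays A to D, against 7.11, 7.60, 7.09 and 7.32 in untreated arrays. All 4 TGFβ values lay above all 4 untreated values, and the same-letter differences were 0.75, 0.84, 1.18 and 0.77. The mean was 8.17 ± 0.25 in TGFβ arrays and 7.28 ± 0.24 in untreated arrays (log2, SD, n = 4 each), a log2 fold change of 0.89 ± 0.15 SE with a 95% interval of 0.55 to 1.22 (adjusted p = 0.0295, limma). With the letter as a block the adjusted p was 0.000602. In the 8 fits without 1 array the log2 fold change stayed at 0.79 to 0.99, but the call was lost in most of them. The call held in 2 of 8, those without TGFβ replicate A (adjusted p = 0.0133) and without untreated replicate B (adjusted p = 0.018). It was lost without TGFβ replicate B, C or D or untreated replicate A, C or D, with adjusted p from 0.0684 to 0.137.

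**Figure D2:**
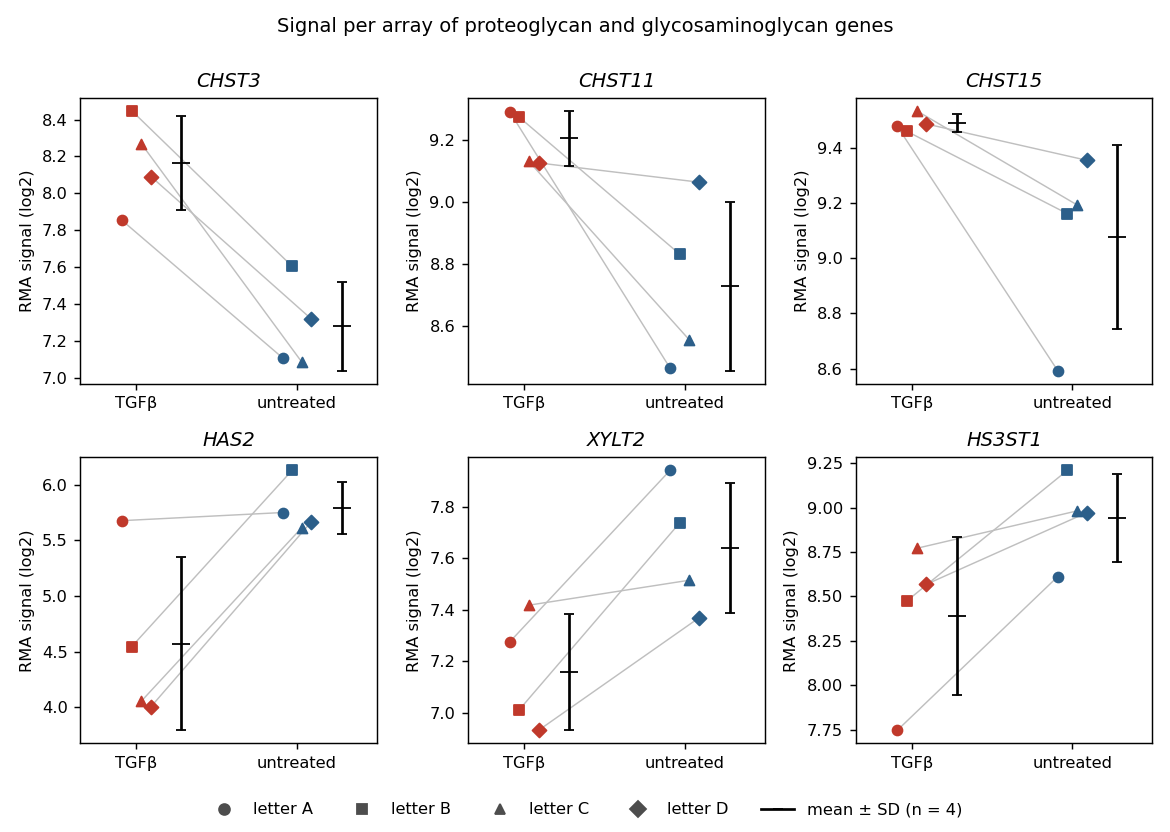
RMA signal (log2, y axis) on each array for 6 genes, with TGFβ arrays in red at the left and untreated arrays in blue at the right, symbols for the letters A to D, grey lines joining the same letter and black bars for the mean ± SD (n = 4). CHST3, CHST11 and CHST15 are higher in all TGFβ arrays than in all untreated arrays, and HAS2 is low in 3 TGFβ arrays but not in array A.

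All 3 probe sets of CHST3 had positive differences. The second had signals of 7.87, 8.37, 8.03 and 8.05 in TGFβ arrays A to D, against 7.19, 7.53, 7.03 and 7.38 in untreated arrays, a log2 fold change of 0.80 ± 0.14 SE. The remaining probe set had 5.20, 5.48, 5.14 and 5.34 in TGFβ arrays, against 4.64, 4.85, 4.56 and 4.50 in untreated arrays, a log2 fold change of 0.65 ± 0.11 SE. Neither pair of groups overlapped. When every probe set was tested on its own and p was adjusted over 54613 probe sets, the 3 had adjusted p of 0.0571, 0.0577 and 0.0508 without the block, and 0.00307, 0.00372 and 0.00855 with it.

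CHST11 (50515), which sulfates carbon 4 of the same sugar and starts most chondroitin-4-sulfate, had signals of 9.29, 9.27, 9.13 and 9.13 in TGFβ arrays A to D, against 8.46, 8.83, 8.56 and 9.06 in untreated arrays. The groups did not overlap, but the lowest TGFβ array and untreated array D were close. Its log2 fold change was 0.48 ± 0.13 SE, short of the threshold (adjusted p = 0.217; 0.057 with the block). Its other probe sets gave larger differences. The probe set with the largest difference had 8.60, 8.87, 8.54 and 8.72 in TGFβ arrays, against 7.83, 7.75, 8.04 and 7.64 in untreated arrays, differing by 0.87 ± 0.11 SE (log2; adjusted p = 0.0159 over all probe sets). The remaining probe set had 0.76 ± 0.19 SE (adjusted p = 0.238; 0.0035 with the block). With the mean of its 3 probe sets as the gene's value, CHST11 passed, at 0.70 (adjusted p = 0.015). With its highest-mean probe set it also passed in the blocked fit without letter D, at 0.61 (adjusted p = 0.0224).

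CHST15 (51363), which adds sulfate to chondroitin that is already sulfated at carbon 4, had signals of 9.48, 9.46, 9.54 and 9.49 in TGFβ arrays A to D, against 8.59, 9.16, 9.19 and 9.36 in untreated arrays. The TGFβ values were nearly equal and lay above all untreated values, of which array A was the lowest. The log2 fold change of 0.42 ± 0.15 SE missed the threshold (adjusted p = 0.422; 0.101 with the block), and without untreated replicate A it was 0.25. CHST7 and CHST12, further sulfotransferases for carbon 6 and carbon 4, overlapped between groups, with log2 fold changes of -0.08 ± 0.12 SE and 0.03 ± 0.16 SE. Of the 5 chondroitin sulfotransferases 1 thus rose, none fell and 4 did not pass, with a median log2 fold change of 0.42.

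The promoters of CHST3 and CHST11 are shown because these 2 sulfotransferase genes had the highest mean signal difference in their group. RefSeq (GRCh38.p14) lists 3 starts for CHST3 and 1 for CHST11, and the windows below hold the 250 bases before the first listed start, on the plus strand, in lower case. Capitals mark CAGAC, the core letters of the SMAD box, and TGANTCA, searched on both strands. TGANTCA allows any base at N and is looser than the AP-1 element, TGA(C/G)TCA.
CHST3, chr10:71964145-71964394: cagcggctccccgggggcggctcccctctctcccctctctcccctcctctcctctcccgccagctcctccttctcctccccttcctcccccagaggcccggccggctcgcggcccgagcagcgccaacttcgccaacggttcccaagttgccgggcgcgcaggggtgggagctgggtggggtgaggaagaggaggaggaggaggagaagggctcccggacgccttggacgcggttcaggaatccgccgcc
CHST11, chr12:104456698-104456947: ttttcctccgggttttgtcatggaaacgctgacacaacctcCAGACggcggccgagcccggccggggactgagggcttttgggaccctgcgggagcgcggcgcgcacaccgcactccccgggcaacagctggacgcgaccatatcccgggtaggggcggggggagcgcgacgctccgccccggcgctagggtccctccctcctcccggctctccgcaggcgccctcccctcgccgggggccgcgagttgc
The CHST3 window before its first start held neither run of letters, and the CHST11 window held 1 CAGAC that begins 209 bases before the start. Before the other 2 listed starts of CHST3 there were 3 matches, shown with 30 bases each.
CHST3 start 2, CAGAC beginning 11 bases before it, chr10:71964769-71964798: cgcgtccaggcgcgcgcgcCAGACtttgga
CHST3 start 3, CAGAC on the minus strand (read as GTCTG) beginning 97 bases before it, chr10:71965232-71965261: tggaaactcggtGTCTGggtgatgtgtgag
CHST3 start 3, TGANTCA beginning 35 bases before it, chr10:71965295-71965324: agaggagggagTGATTCAtaaactcagagc
These letters are common: 38.0% of 35116 RefSeq windows of this length hold CAGAC and 6.57% hold TGANTCA. Among 43 windows of the 34 members in the table, 15 held CAGAC and 2 held TGANTCA, the CHST3 window and that of NDST1. The windows of XYLT2, EXTL2 and HS3ST1 held neither. The CHST3 match to TGANTCA reads TGATTCA, with T at N, which is not the AP-1 element. Windows that hold the AP-1 element itself were not counted. A match is a run of letters and no measured binding, and the arrays do not tell which start was used.

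The 5 enzymes that start or extend chondroitin chains had positive differences, as had 10437 of all 19775 genes, and none passed. Those of CHSY3, CHPF and CSGALNACT1 turned negative in some fits without 1 array. CHSY1 (22856), a chondroitin synthase, had signals of 9.50, 9.69, 9.02 and 9.12 in TGFβ arrays A to D, against 8.86, 9.22, 8.89 and 8.92 in untreated arrays, and was higher in 4 of 4 same-letter pairs although the groups overlapped. Its log2 fold change was 0.36 ± 0.16 SE (adjusted p = 0.563; 0.0969 with the block). CSGALNACT2, which adds the first N-acetylgalactosamine, was also higher in 4 of 4 pairs, at 9.16 to 9.96 in TGFβ arrays and 8.97 to 9.59 in untreated arrays (log2 fold change 0.31 ± 0.18 SE; adjusted p = 0.767). That value came from a probe set that can match several transcripts, and another such probe set had 0.28 ± 0.17 SE. Without such probe sets it was -0.11. In that remaining probe set only TGFβ array A lay below its same-letter partner (6.22 against 7.02). CSGALNACT1, its paralogue, followed the letter: it had 3.88, 5.01, 4.97 and 4.79 in TGFβ arrays A to D, against 3.35, 5.06, 4.86 and 4.79 in untreated arrays, so that both A arrays were well below all others. CHSY3 (0.04 ± 0.15 SE) and CHPF (0.01 ± 0.09 SE), a synthase and its partner, had log2 fold changes near 0.

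On the hyaluronan side, the synthase HAS2 was lower in 3 of 4 TGFβ arrays. HAS2 (3037) had signals of 5.68, 4.54, 4.05 and 4.004 in TGFβ arrays A to D, against 5.75, 6.13, 5.61 and 5.67 in untreated arrays. TGFβ arrays B, C and D lay more than 1 below every untreated array, whereas TGFβ array A lay within the untreated range, so that the groups overlapped. The signals on TGFβ arrays B, C and D were also below the array medians of 4.62 to 4.66. Differences of low signals are compressed on the RMA scale, so the size of this fold is uncertain. The mean was 4.57 ± 0.78 in TGFβ arrays and 5.79 ± 0.23 in untreated arrays (log2, SD, n = 4 each), a log2 fold change of -1.22 ± 0.32 SE with a 95% interval of -1.92 to -0.52, short of the threshold (adjusted p = 0.172; 0.014 with the block). The second probe set behaved alike, with 5.23, 4.38, 3.92 and 4.08 in TGFβ arrays, against 5.50, 5.89, 5.42 and 5.58 in untreated arrays. Without TGFβ replicate A, the array with the 3-prime excess, the log2 fold change of HAS2 was -1.59 and passed (adjusted p = 0.00236). Without any other array it lay between -1.28 and -1.03 and did not pass (adjusted p from 0.243 to 0.471). With the block and without both arrays of letter A it was -1.60 (adjusted p = 4.6e-07), and it lost the blocked call without letter B (adjusted p = 0.104) or letter C (0.115). Whether the RNA state of TGFβ array A has a part in its HAS2 signal was not tested.

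The other members of the hyaluronan group did not pass. HAS3, a synthase that makes shorter chains, lay in the lowest 40% of gene signals, and its 2 probe sets had opposite signs, at 0.16 and -0.30. CD44 (960), the main hyaluronan receptor, had signals of 11.23, 11.98, 11.46 and 11.59 in TGFβ arrays A to D, against 10.90, 11.74, 11.23 and 11.41 in untreated arrays. Both groups followed the letters, with A lowest and B highest in each, and every TGFβ value was above its same-letter partner by 0.17 to 0.33. The log2 fold change of 0.24 ± 0.19 SE missed the threshold (adjusted p = 0.849; 0.163 with the block). Of its 13 probe sets 12 had a positive difference. The largest belonged to a probe set with 5.65, 6.49, 6.03 and 5.76 in TGFβ arrays, against 4.66, 5.42, 4.91 and 5.45 in untreated arrays (log2 fold change 0.87 ± 0.22 SE; adjusted p = 0.234 over all probe sets, and 0.0163 with the block). HYAL2, a membrane-anchored hyaluronidase, had -0.02 ± 0.13 SE.

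HMMR (3161), a hyaluronan-binding protein that also acts on the mitotic spindle, had signals of 6.76, 6.16, 5.93 and 6.003 in TGFβ arrays A to D, against 6.91, 6.36, 6.68 and 6.49 in untreated arrays. It was lower in 4 of 4 pairs, with overlapping groups, and its log2 fold change of -0.40 ± 0.19 SE missed the threshold (adjusted p = 0.642; 0.0864 with the block). It was -0.58 without TGFβ replicate A (adjusted p = 0.107) and passed in the blocked fit without letter A, at -0.48 (adjusted p = 0.0224). The mean level of 20 mitosis genes was 8.87, 8.30, 8.82 and 8.93 in TGFβ arrays A to D, against 9.22, 8.42, 9.16 and 9.15 in untreated arrays. That list was also lower in every same-letter pair, and its part in the HMMR value was not tested.

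**Figure D3:**
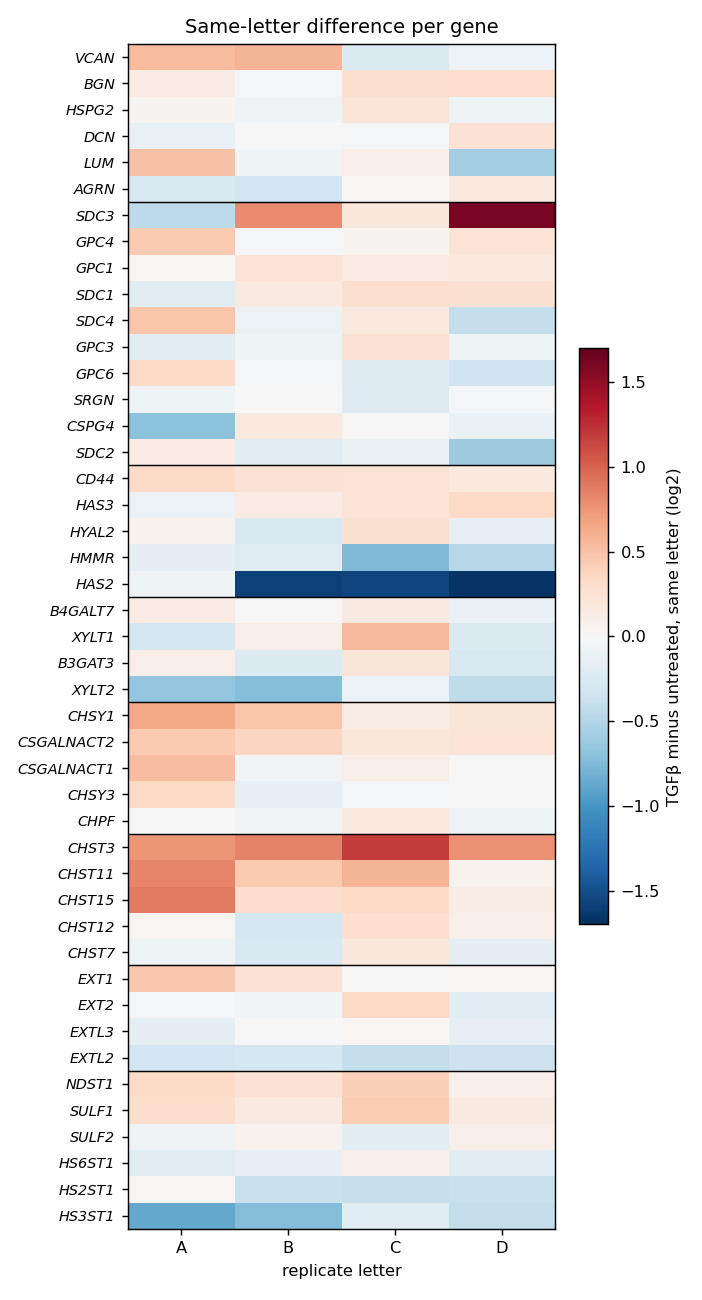
Difference between the TGFβ and the untreated array of the same letter (log2, colour) for each gene (rows, grouped by role with black lines) and letter (columns). CHST3 is positive in all 4 columns, HAS2 is strongly negative in B, C and D and near 0 in A, and SDC3 stands out in column D.

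For the linker, 1 of 4 enzymes passed, with the block only, against 3.57% of all genes with the block. That count is too small to set the group apart. XYLT2 (64132), a xylosyltransferase that starts the chain on the core protein, had signals of 7.28, 7.01, 7.42 and 6.93 in TGFβ arrays A to D, against 7.94, 7.74, 7.52 and 7.37 in untreated arrays. All 4 pairs were lower with TGFβ, but TGFβ array C was above untreated array D. The log2 fold change was -0.48 ± 0.15 SE (adjusted p = 0.296; 0.0423 with the block). Its 3 probe sets differed by -0.48, -0.24 and 0.09, and their mean was -0.21 (adjusted p = 0.579). The probe set at 0.09 had the lowest signals of the 3, at 2.45 to 2.84 over all arrays, against 5.91 to 6.63 for the probe set at -0.24. XYLT1, its paralogue, was in the lowest 40% of signals (0.03 ± 0.15 SE). B4GALT7 and B3GAT3, which add a galactose and the closing glucuronic acid of the linker, had log2 fold changes of 0.05 ± 0.13 SE and -0.04 ± 0.12 SE.

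Heparan sulfate enzymes gave 2 genes that passed with the block only. They were 1 of 4 chain enzymes and 1 of 6 sulfation and editing enzymes, against 3.57% of all genes with the block. Such counts are too small to set these groups apart. EXTL2 (2135), a transferase related to the exostosins that acts on the linker, had signals of 8.12, 8.16, 7.75 and 7.82 in TGFβ arrays A to D, against 8.44, 8.46, 8.16 and 8.17 in untreated arrays. The groups did not overlap, but TGFβ array B and untreated array C were equal after rounding, and the same-letter differences were -0.32, -0.30, -0.41 and -0.35. The log2 fold change of -0.35 ± 0.13 SE did not pass without the block (adjusted p = 0.439; 0.046 with it). HS3ST1 (9957), the sulfotransferase that makes the antithrombin-binding form of heparan sulfate, had 7.75, 8.48, 8.77 and 8.57 in TGFβ arrays A to D, against 8.61, 9.21, 8.98 and 8.97 in untreated arrays. It was lower in 4 of 4 pairs with overlapping groups, and its log2 fold change was -0.55 ± 0.21 SE (adjusted p = 0.459; 0.0254 with the block). Without TGFβ replicate A, its lowest array, the value was -0.34 (adjusted p = 0.468). Of its 3 probe sets 1 differed by only -0.09, and its signals of 4.25 to 4.85 were the lowest of the 3. These blocked calls were close to the threshold: leaving out letter B ended those of XYLT2, EXTL2 and HS3ST1 (adjusted p = 0.232, 0.168 and 0.162), leaving out letter D did so too (0.125, 0.203 and 0.0549), leaving out letter A ended that of XYLT2 (0.0524) and leaving out letter C that of EXTL2 (0.158).

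Signals for NDST1 (3340), which starts the sulfation of heparan chains, were 6.85, 6.83, 6.996 and 6.92 in TGFβ arrays A to D, against 6.52, 6.58, 6.59 and 6.83 in untreated arrays. The groups did not overlap, by a narrow margin, and the difference was 0.27 ± 0.10 SE (adjusted p = 0.428). SULF1, an extracellular sulfatase that trims heparan sulfate, was in the lowest 40% of signals, at 3.34 to 3.58 in TGFβ arrays and 3.04 to 3.27 in untreated arrays (0.26 ± 0.09 SE; adjusted p = 0.439), also without overlap. SULF2, the other sulfatase, also lay in the lowest 40% (-0.02 ± 0.09 SE). HS2ST1, a sulfotransferase of uronic acid, had -0.28 ± 0.17 SE with all 4 of its probe sets negative, and HS6ST1, a sulfotransferase of glucosamine, -0.10 ± 0.12 SE. HS2ST1 passed in the blocked fit without letter A, at -0.38 (adjusted p = 0.0307). Among the chain-building exostosins, EXT1 had 11.12, 10.26, 10.17 and 10.16 in TGFβ arrays A to D, against 10.66, 10.01, 10.17 and 10.14 in untreated arrays, so that the A arrays were the highest of both groups. Its log2 fold change was 0.18 ± 0.22 SE, beside 0.02 ± 0.11 SE for its partner EXT2 and -0.07 ± 0.13 SE for EXTL3. Without TGFβ replicate A the EXT1 difference was -0.05.

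None of the 16 core proteins passed over all 8 arrays, with or without the block. The cell-surface syndecans carry heparan sulfate and serve as coreceptors. SDC3 had the largest difference among them, with signals of 5.63, 6.39, 6.03 and 6.16 in TGFβ arrays A to D, against 6.07, 5.58, 5.84 and 4.55 in untreated arrays. Untreated array D was low and TGFβ array A lay below 2 untreated arrays. The log2 fold change of 0.54 ± 0.29 SE missed the threshold (adjusted p = 0.724), was 0.22 without untreated replicate D, and the other probe set of SDC3 had -0.003. In the blocked fit without letter A it passed, at 0.87 (adjusted p = 0.0114). SDC1, SDC2 and SDC4 had 0.12 ± 0.11 SE, -0.19 ± 0.15 SE and 0.03 ± 0.16 SE. SDC4 lay at 9.55 to 10.28 in TGFβ arrays and at 9.64 to 10.06 in untreated arrays.

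Glypicans are heparan sulfate proteoglycans held by a lipid anchor. GPC1 was slightly higher in all TGFβ arrays, at 7.02 to 7.19 against 6.86 to 7.01 in untreated arrays, and did not pass (0.14 ± 0.09 SE; adjusted p = 0.795). GPC6 had 7.53, 6.58, 6.42 and 6.55 in TGFβ arrays A to D, against 7.19, 6.61, 6.64 and 6.89 in untreated arrays, again highest in both A arrays; its log2 fold change was -0.06 ± 0.23 SE, and -0.32 without TGFβ replicate A (adjusted p = 0.521). GPC3 and GPC4 lay in the lowest 40% of signals (-0.02 ± 0.10 SE and 0.17 ± 0.10 SE). SRGN, the granule proteoglycan serglycin, varied little, at 11.76 to 12.02 in TGFβ arrays and 11.88 to 12.10 in untreated arrays (95% interval of the difference -0.29 to 0.13). CSPG4, a transmembrane chondroitin sulfate proteoglycan, was low on 7 arrays, between 4.02 and 4.51, and reached 5.20 in untreated array A.

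Among secreted cores, VCAN, the large hyaluronan-binding chondroitin sulfate proteoglycan versican, had signals of 6.29, 6.18, 5.71 and 6.01 in TGFβ arrays A to D, against 5.75, 5.60, 5.96 and 6.12 in untreated arrays. TGFβ was higher in letters A and B and lower in C and D, and the log2 fold change of 0.19 ± 0.15 SE missed the threshold (adjusted p = 0.846). BGN, a small leucine-rich proteoglycan that TGFβ induces in other cells, had 5.62 to 5.97 in TGFβ arrays and 5.44 to 5.83 in untreated arrays (0.17 ± 0.12 SE; adjusted p = 0.81). DCN and LUM, its relatives of fibroblast matrix, lay in the lowest 40% of signals in these cells, at 0.02 ± 0.10 SE and -0.01 ± 0.24 SE. The basement membrane heparan sulfate proteoglycans HSPG2 and AGRN had 0.03 ± 0.19 SE and -0.10 ± 0.16 SE.

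How small a change could have been missed is given by the intervals. The SE of the 45 log2 fold changes ranged from 0.09 to 0.36 with a median of 0.15. In 41 members the 95% interval stayed within a 2-fold change in either direction, and in 29 within 1.5-fold; the 4 that reached beyond 2-fold were CHST3, HAS2, SDC3 and HS3ST1. These limits hold for the RMA scale, on which the differences of low signals are compressed; 10 members lay in the lowest 40% of signals. An array of a whole culture cannot tell fewer expressing cells from less RNA per cell.

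Signals were also compared by replicate letter. In 37 of 45 members, or 82.2%, the range of the 4 same-letter means exceeded the difference between treatments. Over all genes it was 89.1%. A range of several means of few arrays tends to exceed a single difference of group means without any letter effect. These shares therefore do not show one. The median range of these means was 0.42 for the members, beside 0.29 over all genes. The letter A had the highest mean in 24 members, or 53.3%, against 32.7% of all genes, among them EXT1, GPC6, HSPG2, AGRN and CSPG4. The array of letter A with the 3-prime excess is the TGFβ array. EXT1, GPC6 and HSPG2 were higher on TGFβ array A (11.12, 7.53 and 7.68) than on untreated array A (10.66, 7.19 and 7.63). AGRN and CSPG4 were lower on TGFβ array A (7.77 and 4.51) than on untreated array A (8.04 and 5.20). The part of that excess in these levels was not tested. All 4 same-letter differences had 1 sign in 16 members, positive in 10 and negative in 6. The share of all genes with 1 sign was not computed, so this count does not set the members apart.

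Probe sets of the same gene often disagreed in sign. The 45 members had 118 probe sets, and 38 members had more than 1. In 19 of these 38 all probe sets pointed 1 way, among them CHST3, CHST11, CHST15, HAS2, HS3ST1, NDST1, HMMR and HS2ST1.

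**Figure D4:**
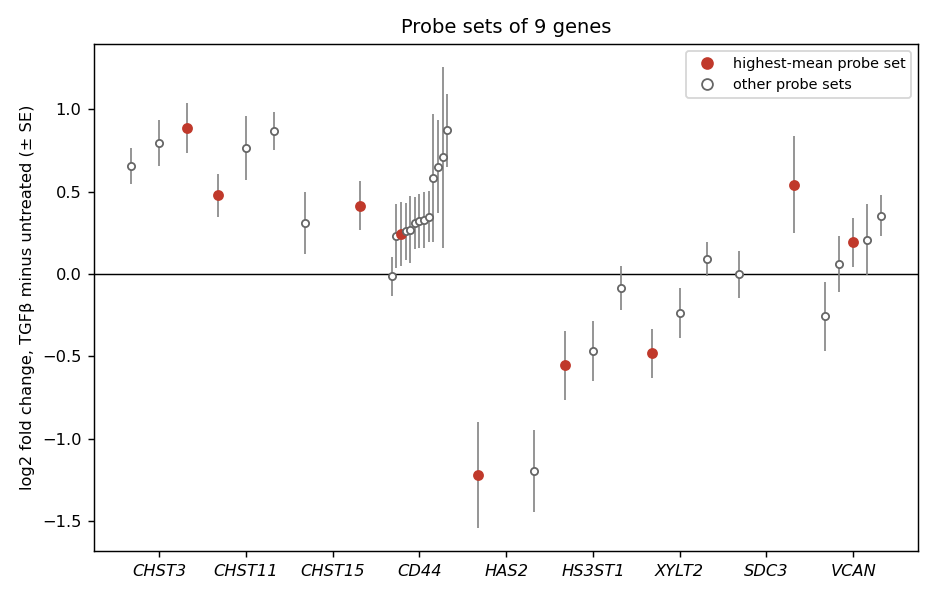
Log2 fold change (TGFβ minus untreated, y axis, ± SE) of each probe set of 9 genes, with the highest-mean probe set filled in red and the others open. The 3 probe sets of CHST3, the 3 of CHST11 and the 2 of HAS2 agree in sign, and those of XYLT2 and VCAN lie on both sides of 0. The XYLT2 probe set above 0 had the lowest signals of its 3.

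Of 88 further genes of proteoglycan and glycosaminoglycan biology 83 were measured. PXYLP1 fell, none rose and 82 did not pass, so that 1.2% passed, against 0.576% of all genes. With the block 3 fell (PXYLP1, TGFBR3 and NRP1) and SLC26A2 rose, or 4.82%, against 3.57% of all genes. PXYLP1 (92370), the phosphatase that removes phosphate from the linker xylose, had signals of 5.58, 5.09, 5.35 and 5.30 in TGFβ arrays A to D, against 6.27, 5.99, 5.94 and 5.96 in untreated arrays, with no overlap. Its log2 fold change was -0.71 ± 0.12 SE (adjusted p = 0.0318; 0.00139 with the block), 1 of its 2 probe sets had that direction, and it passed in 1 of 8 fits without 1 array, the one without TGFβ replicate A (adjusted p of the 8 fits up to 0.13). SLC26A2 (1836), the plasma membrane sulfate transporter that feeds sulfation, had 9.19, 9.40, 8.64 and 8.88 in TGFβ arrays A to D, against 7.77, 8.85, 8.26 and 8.44 in untreated arrays. It was higher in 4 of 4 pairs, most in A, and its log2 fold change of 0.70 ± 0.22 SE passed with the block only (adjusted p = 0.338; 0.0353 with the block).

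TGFBR3, the proteoglycan betaglycan that presents TGFβ to its receptors, had signals of 7.19, 5.99, 5.91 and 5.79 in TGFβ arrays A to D, against 7.81, 7.30, 7.18 and 7.09 in untreated arrays. As with HAS2, TGFβ arrays B, C and D lay at least 1 below every untreated array and TGFβ array A lay in the untreated range. The log2 fold change was -1.12 ± 0.28 SE (adjusted p = 0.164; 0.000541 with the block). Without TGFβ replicate A it was -1.45 and passed without the block (adjusted p = 0.0032), which no other fit without 1 array did. NRP1, a coreceptor that can carry a glycosaminoglycan chain, had 8.46, 9.28, 8.75 and 8.92 in TGFβ arrays, against 8.97, 9.70, 9.32 and 9.62 in untreated arrays, and was lower in 4 of 4 pairs (adjusted p = 0.428; 0.0064 with the block). Among the 12 enzymes of lysosomal or extracellular breakdown, the 12 genes of hyaluronan binding and turnover, the 10 further heparan enzymes and the 6 keratan enzymes none passed in either fit. The median log2 fold change of the 83 genes was -0.01, beside 0.01 over all genes.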

How the data were processed

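The members and gene lists were chosen with earlier results of these data known. The deposited values are log2 signals of probe sets, which the authors made with RMA (background correction, normalization between arrays and summary of probes), per the submitters' processing notes. Which arrays were normalized together, and with what version, is not given in the sources used here. The log2 base was inferred from the values. Of 54613 probe sets that are not controls, 41091 named 1 gene in GEO's platform annotation, 1801 several and 11721 none; 41037 were found in RefSeq by Entrez identifier. TGFβ and untreated arrays (4 each) were set against each other in limma 3.58.1 under R 4.3.3 (two-sided, 19775 genes, Benjamini-Hochberg, threshold 0.05). The fits were also run on simulated data with independent noise on each array and no letter effect. That run does not show how either fit behaves when same-letter arrays deviate together. The replicate letters were taken to pair the arrays, which no label states. Same-letter deviations from the group means correlated over genes at 0.49, 0.69, 0.34 and 0.30 for A, B, C and D. Correlations between different letters were not computed, so a coarser grouping of the arrays cannot be told apart from pairing by letter. Calls with the block rest on this assumption. Tests are without the block unless it is named. All members are named, of the further genes those that passed in either fit, and SMAD7. Alternatives were the replicate block, the upper 60% of signals, centring, repeated quantile normalization, averaging of a gene's probe sets, a prior with trend and robust fitting, no _x_at or _s_at probe sets, every probe set tested, and each array left out; blocked fits without 1 letter were added after seeing the data. HAS1, HYAL1, NDST2 and some further pathway genes were not analysed here. Plots used matplotlib 3.10.9 (Python 3.11.15).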

Additional observations from a re-analysis of the deposited data

Results flagged for a closer look

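In 9 of 90 groups of 4 arrays (45 members in each treatment), 1 array stood apart from its group by Dixon's test, where chance flags about 1 in 20 groups; 5 of the 9 were letter A. LUM had 3.05 in untreated replicate C, against 3.70 to 3.83 in the other arrays of its group. SDC1 had 8.63 in TGFβ replicate C, against 8.52 in the other arrays of its group. GPC6 had 7.53 in TGFβ replicate A, against 6.42 to 6.58 in the other arrays of its group. CSPG4 had 5.20 in untreated replicate A, against 4.02 to 4.19 in the other arrays of its group. CHSY1 had 9.22 in untreated replicate B, against 8.86 to 8.92 in the other arrays of its group. CHSY3 had 6.20 in TGFβ replicate A, against 5.55 to 5.58 in the other arrays of its group. CSGALNACT1 had 3.35 in untreated replicate A, against 4.79 to 5.06 in the other arrays of its group. EXT1 had 11.12 in TGFβ replicate A, against 10.16 to 10.26 in the other arrays of its group. HS2ST1 had 7.87 in untreated replicate B, against 7.30 to 7.38 in the other arrays of its group. On TGFβ array A, the 3-prime excess of ACTB was 1.68, and its part in the values of GPC6, CHSY3 and EXT1 was not tested.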

How the results depend on the processing

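With the replicate block, 5 members, 4 further pathway genes and 705 genes passed, against 1, 1 and 114 without it; the pairing changed no other member's call than those of HAS2, XYLT2, EXTL2 and HS3ST1. Averaging probe sets gave 2 members and 0 further genes. Testing every probe set, with p adjusted over more tests and a gene counted by its highest-mean probe set, gave 0 and 0: CHST3 kept 0.89 but did not pass (adjusted p = 0.0571), while another probe set of CHST11 passed (adjusted p = 0.0159). Leaving out 1 array gave 0 to 2 members, 0 to 2 further genes and 46 to 232 genes, and 0.79 to 0.99 for CHST3. The member count was 2 without TGFβ replicate A, 1 without untreated replicate B and 0 without any other array; that of further genes was 2 without TGFβ replicate A and 0 without any other. Over all genes it was 232 without TGFβ replicate A, 59 and 46 without TGFβ replicates C and D, and 49 and 53 without untreated replicates C and D. Blocked fits without letters A, B, C and D, chosen after seeing the data, gave 7, 1, 3 and 3 members, 7, 3, 3 and 4 further genes and 1304, 288, 321 and 356 genes. The sign held in every setting in 20 of 45 members; 25, none of which passed with or without the block, changed sign in at least 1, and the cause was not tested. The sign turned with centring for LUM (0.017), GPC3 (0.0047), HYAL2 (0.0077), SULF2 (0.0027). The sign turned with averaged probe sets for LUM (0.0050), AGRN (0.0063), GPC3 (0.0095), GPC4 (-0.019), SRGN (0.023), HAS3 (-0.074), XYLT1 (-0.013), B3GAT3 (0.012), SULF2 (0.047). The sign turned with no _x_at or _s_at probe sets for LUM (0.020), AGRN (0.035), GPC4 (-0.21), SRGN (0.070), CSPG4 (0.038), CSGALNACT2 (-0.11), SULF2 (0.12). The sign turned with repeated quantile normalization for HYAL2 (0.015), B3GAT3 (0.0024). In the blocked fit without letter D it turned for DCN (-0.052), LUM (0.18), GPC6 (0.031), HYAL2 (0.019), B3GAT3 (0.032). In the blocked fit without letter B it turned for LUM (0.012), HYAL2 (0.062), B3GAT3 (0.017). In the blocked fit without letter C it turned for HSPG2 (-0.036), SDC4 (-0.0090), XYLT1 (-0.14), CHPF (-0.038), CHST12 (-0.060), EXT2 (-0.081), SULF2 (0.034). In the blocked fit without letter A it turned for SDC4 (-0.11), GPC3 (0.035), CSPG4 (0.019), CHSY3 (-0.057). Without 1 array, ranges that crossed 0 were DCN -0.042 to 0.081, LUM -0.22 to 0.13, HSPG2 -0.13 to 0.18, AGRN -0.22 to 0.018, SDC4 -0.11 to 0.13, GPC3 -0.082 to 0.027, GPC6 -0.32 to 0.056, CSPG4 -0.29 to 0.11, HYAL2 -0.10 to 0.091, XYLT1 -0.089 to 0.13, B4GALT7 -0.031 to 0.14, B3GAT3 -0.12 to 0.042, CHSY3 -0.12 to 0.10, CHPF -0.023 to 0.063, CHST7 -0.15 to 0.0048, CHST12 -0.10 to 0.14, CSGALNACT1 -0.24 to 0.41, EXT1 -0.047 to 0.32, EXT2 -0.046 to 0.085, EXTL3 -0.14 to 0.043, SULF2 -0.053 to 0.0088. RMA gives no detection call, and 10 members lay in the lowest 40% of signals.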
